A study of Mus musculus with 6 samples.

Results

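AMPA and delta receptor subunits, which are ionotropic glutamate receptors, were described across 6 cochlear libraries. Members were the AMPA genes with the symbols Gria1 to Gria4 and the delta gene Grid1, as named in the deposited lists of regulated genes. They were 4 of the 41096 genes in the table: Gria1 (MGP_C57BL6NJ_G0018727), Gria2 (MGP_C57BL6NJ_G0027738), Gria4 (MGP_C57BL6NJ_G0034804) and Grid1 (MGP_C57BL6NJ_G0021564). All 4 stood in the list of down-regulated genes, and Gria3 was not analysed here. The lists were drawn up from the same comparison of MSC treated with sound trauma animals, so the fold changes of the members are given as a description and are not used as evidence.

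Both groups consisted of mice labelled C56Bl/6, which the methods give as female C57BL/6 animals 4 weeks of age, and both were exposed to 16 kHz sound in the left ear for 4 h. The sound trauma group (specimens 6, 8 and 10) received, by the methods, artificial perilymph 2 days later, while the labels name noise alone. The MSC treated group (specimens 13, 18 and 20) received mesenchymal stromal cells from human umbilical cord Wharton's jelly, which were delivered into the posterior semicircular canal. Total RNA came from the whole left cochlea 2 days after treatment by the labels and 3 days after delivery by the methods. The methods give 5 animals per condition, and the libraries analysed here were 3 per group, each labelled as 1 specimen. The groups therefore shared the noise exposure, and no unexposed cochlea was analysed here.

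AMPA receptors are tetramers of the subunits encoded by Gria1 to Gria4. They carry the fast excitatory current at most glutamatergic synapses, including the synapse between the inner hair cell and the spiral ganglion neuron. A channel that holds the edited form of the Gria2 protein passes little calcium, so the proportion of Gria2 to the other subunits bears on calcium entry. Grid1 encodes the delta subunit GluD1, which acts mainly as a synaptic adhesion receptor that binds cerebellins secreted by the presynaptic cell and is found widely in brain and in the inner ear.

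The stretch of coding sequence that lines the channel pore is shown for the 4 members because it holds the codon that decides calcium entry and because it shows how alike the subunits are. The first capitals mark the codon of the Q/R site and the second capitals the conserved codons of the channel gate. The sequences were read from the GENCODE M21 transcripts of GRCm38, which is not the C57BL/6NJ build used for the counts.
Gria1: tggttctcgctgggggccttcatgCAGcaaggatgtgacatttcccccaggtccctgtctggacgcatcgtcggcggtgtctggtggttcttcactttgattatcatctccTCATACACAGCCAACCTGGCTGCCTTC
Gria2: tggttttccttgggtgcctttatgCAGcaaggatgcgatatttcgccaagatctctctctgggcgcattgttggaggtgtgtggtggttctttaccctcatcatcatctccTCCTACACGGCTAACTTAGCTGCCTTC
Gria4: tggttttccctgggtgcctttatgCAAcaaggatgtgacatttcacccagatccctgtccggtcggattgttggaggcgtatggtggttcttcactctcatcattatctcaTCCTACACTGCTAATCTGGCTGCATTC
Grid1: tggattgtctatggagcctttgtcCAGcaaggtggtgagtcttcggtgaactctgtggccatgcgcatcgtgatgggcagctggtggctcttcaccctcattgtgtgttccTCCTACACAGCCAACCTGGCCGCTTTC
Each stretch has 138 bases and is split by 1 intron, between exons 11 and 12, or between exons 12 and 13 in Gria4. On GRCm38 the stretches span, with their introns, chr11:57243070-57283597 (Gria1, + strand), chr3:80702569-80706937 (Gria2, - strand), chr9:4462017-4464163 (Gria4, - strand) and chr14:35450366-35452367 (Grid1, + strand). The Q/R codon was CAG in Gria1 (codon 600), Gria2 (codon 607) and Grid1 (codon 618), and CAA in Gria4 (codon 608). In the RNA of Gria2 this genomic CAG is changed by the editing enzyme encoded by Adarb1, and editing itself was not measured here. Over the whole protein Gria1 shared 69.5% of aligned residues with Gria2 and 68.2% with Gria4, and Gria2 shared 73.1% with Gria4. Identity between Grid1 and the AMPA members lay between 30.5% and 31.9%.

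Libraries held between 9170390 and 11030863 reads on genes. Values below are scaled counts, which are reads multiplied by 1 factor per library as deposited, and in these libraries 1 read was worth 0.893 to 1.16 scaled counts. Where 3 values are listed for a group, they follow the order of specimens 6, 8 and 10 for sound trauma and 13, 18 and 20 for MSC treatment. The sound trauma libraries were not alike. Specimens 6 and 8 lay above specimen 10 in all 4 members, so fold changes are given with and without them. The labels give no preparation batch, so a batch and the specimen cannot be told apart. In whole cochlea, fewer cells of a type and less RNA per cell cannot be told apart either.

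Among the AMPA subunits, Gria1 had the widest range. Its scaled count was 408, 2281 and 42.9 after sound trauma alone, against 33.2, 101 and 65.0 with MSC. Specimens 8 and 6 lay above all MSC treated libraries, and specimen 10 lay inside their range, so that the groups overlapped. The sound trauma mean was 911 ± 1201 (SD, n = 3) and the MSC treated mean 66.5 ± 34.0 (SD, n = 3).

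Gria2, the subunit that sets calcium permeability, was at 253, 1032 and 86.7 scaled counts after sound trauma alone. With MSC it was at 74.8, 137 and 114. Gria4, which encodes a subunit with fast gating that is abundant in auditory neurons, was at 318, 1580.4 and 133 scaled counts after sound trauma alone, against 117, 238 and 168 with MSC. For both genes the order of libraries was the same as for Gria1 among the sound trauma specimens, with 8 above 6 and 6 above 10, and specimen 10 again fell within the MSC treated range.

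Grid1 varied least of the 4 members. It was at 70.7, 172 and 50.9 scaled counts after sound trauma alone, against 42.6, 70.5 and 42.7 with MSC. Specimen 6 lay barely above the highest MSC treated library, and only specimen 8 stood clear of it.

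**Figure D1:**
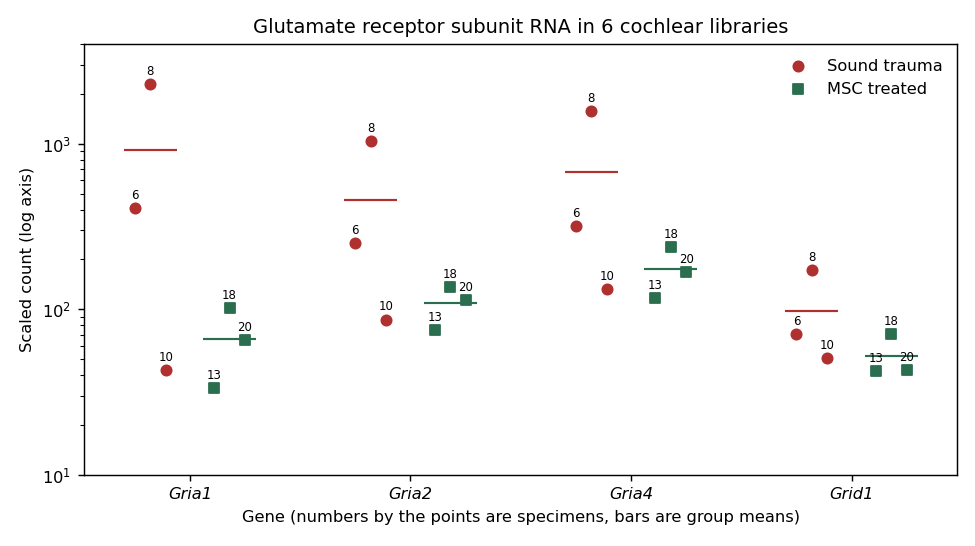
Scaled counts on a log axis for each AMPA subunit gene and Grid1, with sound trauma libraries as circles, MSC treated libraries as squares, the specimen number at each point and a bar at each group mean (n = 3 per group). Specimen 8 is the highest point for all 4 genes, while specimen 10 lies among the MSC treated libraries.

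Specimen 8 was the highest library for 4 of 4 members, and it was the highest for 28.2% of the 15970 genes tested. Against the MSC treated mean, specimen 8 was 34.3-fold higher in Gria1, 9.52-fold in Gria2, 9.06-fold in Gria4 and 3.31-fold in Grid1. The same ratios in specimen 6 were 6.14, 2.33, 1.82 and 1.36. In both libraries the order of genes was therefore Gria1, Gria2, Gria4 and Grid1. In specimen 10 the ratios were 0.645 for Gria1, 0.799 for Gria2, 0.763 for Gria4 and 0.980 for Grid1, all below 1.

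The unequal ratios meant that subunit balance differed between libraries. Shares within a library do not depend on how libraries were scaled. Gria1 made up 41.7% (95% Wilson interval 38.4 to 45.1%) of the 844 reads on the 3 AMPA genes in specimen 6 and 46.6% (45.3 to 48%) of 5118 reads in specimen 8. In specimen 10 it made up 16.3% (12.5 to 21.0%) of 294 reads. The MSC treated libraries had 14.7% (10.6 to 20.1%) of 217 reads in specimen 13, 21.2% (17.8 to 25.2%) of 466 in specimen 18 and 18.8% (15.1 to 23.1%) of 357 in specimen 20. The intervals of specimens 6 and 8 lay apart from those of all 4 other libraries, and the interval of specimen 10 overlapped all 3 MSC treated ones. These intervals cover counting error only.

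Gria4 took the opposite place. It held 32.5% and 32.3% of AMPA reads in specimens 6 and 8, against 50.7% in specimen 10 and 52.1%, 50.0% and 48.5% with MSC. Gria2 held 25.8% and 21.1% in specimens 6 and 8, 33.0% in specimen 10, and 33.2%, 28.8% and 32.8% in the MSC treated libraries. Averaged over libraries, the Gria1 share was 34.9% ± 16.3 without MSC and 18.3% ± 3.3 with MSC (SD, n = 3 each), and the wide spread in sound trauma was that between specimen 10 and the other two.

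Ratios between pairs of genes showed where the balance moved. The ratio of Gria4 to Gria2 reads was nearly constant, with 1.26, 1.53 and 1.54 after sound trauma alone, against 1.57, 1.74 and 1.48 with MSC. The ratio of Gria1 to Gria2 reads was 1.61 and 2.21 in specimens 6 and 8, and it lay between 0.444 and 0.739 in the other 4 libraries. The ratio of Grid1 to Gria2 reads went the other way, with 0.280 and 0.167 in specimens 6 and 8, 0.588 in specimen 10, and 0.569, 0.515 and 0.376 with MSC. Gria1 thus gained on Gria2, and Grid1 lost ground to it, in the same specimens.

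**Figure D2:**
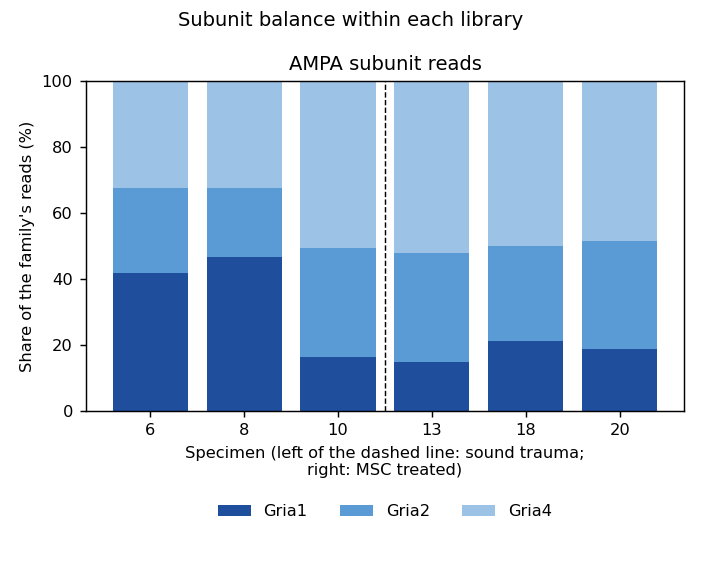
Stacked bars of each subunit's percentage of the reads on the 3 AMPA genes in each library, sound trauma to the left of the dashed line and MSC treated to the right. Specimens 6 and 8 share a larger Gria1 part, and specimen 10 resembles the MSC treated libraries, with Gria1 at 16.3%.

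The reads in excess of the MSC treated mean had a makeup of their own. In specimen 6 the excess over the 3 AMPA genes was 629 scaled counts, of which Gria1 was 54.3%, Gria2 22.9% and Gria4 22.8%. In specimen 8 it was 4544 scaled counts, of which Gria1 was 48.7%, Gria2 20.3% and Gria4 30.9%. The excess in specimen 8 was 6.49 times that in specimen 6 for Gria1, 6.40 times for Gria2, 9.82 times for Gria4 and 6.40 times for Grid1. The factor of Gria4 was the largest, but it divides by an excess of 143 in specimen 6, beside an MSC treated mean of 174 ± 60.5 (SD, n = 3). For Grid1 the factor rests on a small excess in specimen 6, where the count of 70.7 has a 95% Poisson interval of 54.1 to 90.8 (counting error only), beside an MSC treated mean of 51.9.

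Levels between genes were compared per length, as FPKM (reads scaled by gene length and by library depth). The deposited group means imply gene lengths of 6043 bases for Gria1, 15369 for Gria2, 6146 for Gria4 and 6013 for Grid1, from which FPKM was worked out for each library. In the MSC treated group Gria4 was highest at 2.96 ± 1.14 FPKM, and Gria1 followed at 1.15 ± 0.627, Grid1 at 0.896 ± 0.310 and Gria2 at 0.734 ± 0.243 (SD, n = 3). Gria4 was highest in each of the 3 libraries, and Gria1 was above Gria2 in each. The place of Grid1 changed from library to library, so it did not differ from either neighbour beyond their spread.

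In sound trauma Gria1 was at 5.99, 39.4 and 0.720 FPKM in specimens 6, 8 and 10, and Gria4 at 4.58, 26.9 and 2.20 FPKM. Gria1 was therefore above Gria4 in specimens 6 and 8 and below it in specimen 10 and in all MSC treated libraries. Gria2 was at 1.46, 7.01 and 0.572 FPKM, and Grid1 at 1.04, 2.99 and 0.859. With coding length in place of gene length, Gria2 stood above Gria1 in specimen 10 and the MSC treated libraries, with 33.5% against 16.1% of the AMPA total in specimen 10, so the place of Gria2 in the order depended on the long gene model that the FPKM values use. The preponderance of Gria1 in specimens 6 and 8 held on both scales, at 49.8% and 53.8% per gene length and 41.3% and 46.3% per coding length.

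The fold changes between groups are given as descriptions. In a limma-trend fit on log2(scaled count + 1), the difference of MSC treated from sound trauma was -2.49 ± 1.35 (log2 fold change ± SE) for Gria1, -1.42 ± 0.85 for Gria2, -1.27 ± 0.86 for Gria4 and -0.75 ± 0.48 for Grid1. Over all 15970 genes tested, 0 were called lower (0%) and 0 higher (0%) at an adjusted p under 0.05, and 0 of 4 members were called, a count from which nothing is read because the members were chosen on this contrast. The smallest adjusted p over all genes was 0.954, by limma-trend with Benjamini-Hochberg adjustment. At an unadjusted p under 0.05 limma-trend had 107 genes lower and 269 higher, edgeR on the recovered reads 266 and 259, and DESeq2 550 and 249, and both of those tools also called 0 genes after adjustment. None of the 4 members had every MSC treated value below every sound trauma value, a pattern held by 2.92% of all genes, and none had the opposite pattern, which 4.25% held.

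The size of these differences rested on single libraries. Without specimen 8 the log2 fold changes were -1.13 for Gria1, -0.49 for Gria2, -0.30 for Gria4 and -0.25 for Grid1. Without specimen 10 they were -3.98, -2.27, -2.08 and -1.11 in the same order of genes. With specimens 6 and 8 both left out, a choice made after the data were seen, only specimen 10 remained in sound trauma, its spread was assumed to be that of the other group, and the values were 0.48 for Gria1, 0.28 for Gria2, 0.33 for Gria4 and -0.01 for Grid1. The direction turned for 3 of 4 members. Left out one at a time, MSC treated libraries moved the Gria1 value between -2.86 and -2.07.

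**Figure D3:**
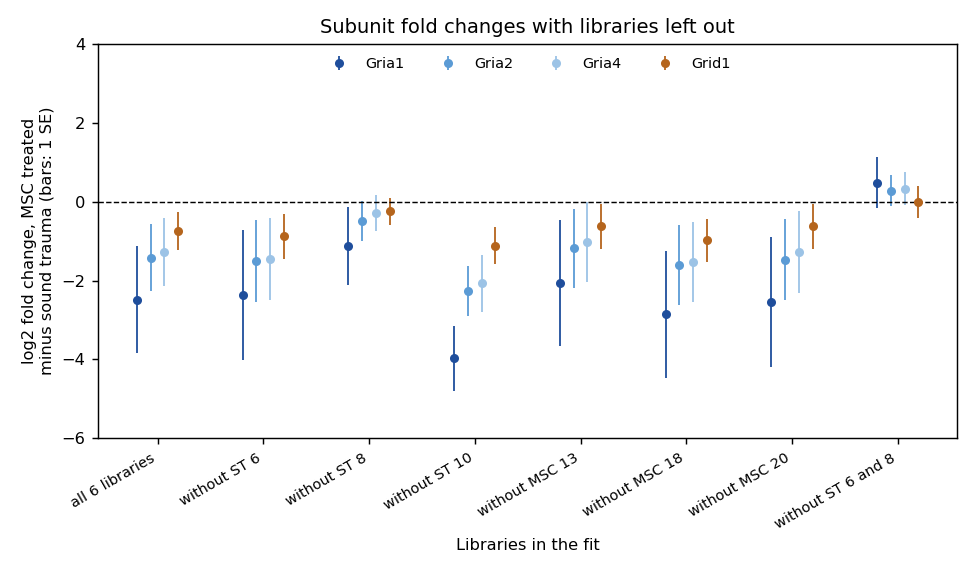
Fitted log2 fold change (MSC treated minus sound trauma, bars of 1 SE) of each subunit with all 6 libraries and with the named libraries left out. All values lie below 0 in every fit but the last, in which specimens 6 and 8 are both absent and 3 of 4 values lie above 0.

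AMPA receptors reach and stay at synapses with the help of auxiliary subunits that ride along in the receptor complex. Of 15 such genes, 14 had a name in the deposited lists, all among the down-regulated genes. In 14 of 14 specimen 8 was the highest library, as it was for 28.2% of all genes tested. These genes were selected by the study on these samples, so the count is no independent evidence. Of the 12 that passed the filter on low counts, 12 had a fitted log2 fold change below 0 (49.8% of all genes did) and 0 were called. Their median was -1.23, against a median of 0.00 over all genes. Because all came from the down-regulated list of this comparison, values below 0 were largely fixed in advance and nothing is read from them. The median was -0.36 without specimen 8 and -0.07 without specimens 6 and 8.

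Shisa6, which slows receptor desensitization, had the lowest fold change at -2.38 ± 1.19 (SE), from 60.3, 692 and 24.1 scaled counts after sound trauma alone, against 10.4, 28.6 and 21.4 with MSC. Shisa8, of the same family, had the value nearest to 0, -0.36 ± 0.41. Cacng7, a transmembrane AMPA receptor regulatory protein, had the highest level per length of the list in each library but specimen 8, where Prrt1 was at 75.4 FPKM, with 30.3, 74.9 and 21.7 FPKM after sound trauma alone, against 19.1, 26.0 and 20.1 FPKM with MSC. Cacng3 was at 0 reads in specimen 10 and did not pass the filter, nor did Cnih3.

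Genes of receptor assembly, trafficking and turnover had a median closer to 0. Of 13 genes, 10 were named, all as down-regulated, and 10 of 10 were highest in specimen 8 (28.2% of all genes tested were). All 10 had a fitted value below 0 (49.8% of all genes did), with 0 called (0% of all genes). The down-regulated list was drawn from this comparison, so these counts are no independent evidence. The median log2 fold change was -0.54 and became -0.09 without specimen 8 and 0.16 without specimens 6 and 8. Frrs1l, which encodes an assembly factor of the endoplasmic reticulum, was lowest at -1.69 ± 1.03 and Gripap1, which acts in endosomal recycling, nearest to 0 at -0.22 ± 0.15. Nsg1, a neuronal endosomal protein, had the highest level per length as a mean over the 6 libraries, which specimen 8 carried, with 18.7, 64.8 and 12.2 FPKM after sound trauma alone, against 11.0, 19.5 and 12.0 FPKM with MSC.

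Adarb1, named here for its role in editing the Q/R codon of Gria2, was at 1481, 3276 and 1233 scaled counts after sound trauma alone, against 1106, 1864 and 1205 with MSC. Specimen 8 was highest, specimens 6 and 10 lay within the MSC treated range, and the groups overlapped. Its fitted difference was -0.42 ± 0.40. Relative to the MSC treated mean it was 2.35-fold higher in specimen 8, whereas Gria2 was 9.52-fold higher there.

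At the postsynaptic density, 14 of 22 scaffold and clustering genes were named, all as down-regulated. Specimen 8 was highest for 13 of them (28.2% of all genes tested) and specimen 6 for Camk2a. All 14 had fitted values below 0 (49.8% of all genes did), with 0 called (0% of all genes). These counts too come from genes selected on this comparison and are no independent evidence. The median log2 fold change was -0.95, which was -0.25 without specimen 8 and 0.13 without specimens 6 and 8. Lrrtm2, a synaptic adhesion protein that holds AMPA receptors in place, was lowest at -1.65 ± 1.11, and Dlg3, a scaffold of the PSD-95 family, nearest to 0 at -0.31 ± 0.34. Dlgap4, a scaffold-associated protein, had the highest level per length as a mean over the 6 libraries and in specimen 10 and the 3 MSC treated libraries, with values between 17.5 and 28.3 FPKM. In specimen 6 the kinase subunit gene Camk2b was above it at 23.8 FPKM, and in specimen 8 the scaffold gene Dlg4 was at 50.3 FPKM.

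Partners of delta receptors include the cerebellins, secreted by presynaptic cells. Of 12 genes, 9 were named, all as down-regulated, of which 8 had a fitted value below 0 (49.8% of all genes did). Of the 9, 0 were called (0% of all genes). Selection on this comparison again leaves these counts without weight as evidence. The median was -1.02, with -0.35 without specimen 8 and 0.53 without specimens 6 and 8. Cbln3, a cerebellin made by cerebellar granule cells, was at 615, 5659.9 and 8.04 scaled counts after sound trauma alone, against 21.8, 29.6 and 23.3 with MSC, a fitted difference of -3.62 ± 2.15. Specimens 6 and 8 stood far above the rest and specimen 10 was the lowest library. Cbln1, another cerebellin, had the highest level per length in specimens 6 and 8 and as a mean over the 6 libraries, at 21.8, 168 and 2.41 FPKM after sound trauma alone, against 1.81, 7.34 and 2.54 FPKM with MSC. Nrxn2, a presynaptic neurexin, was above it in specimens 10, 13 and 20, at 3.09, 3.24 and 5.64 FPKM, and C1ql1 in specimen 18 at 14.2 FPKM. Cbln2 had a fitted value of 0.03 ± 1.21, from 23.2, 58.3 and 0.893 scaled counts after sound trauma alone, the last of which is 1 read, against 10.4, 14.3 and 15.5 with MSC. C1ql1 and C1ql2, secreted proteins of the C1q family, were highest in specimen 6 and not in specimen 8.

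**Figure D4:**
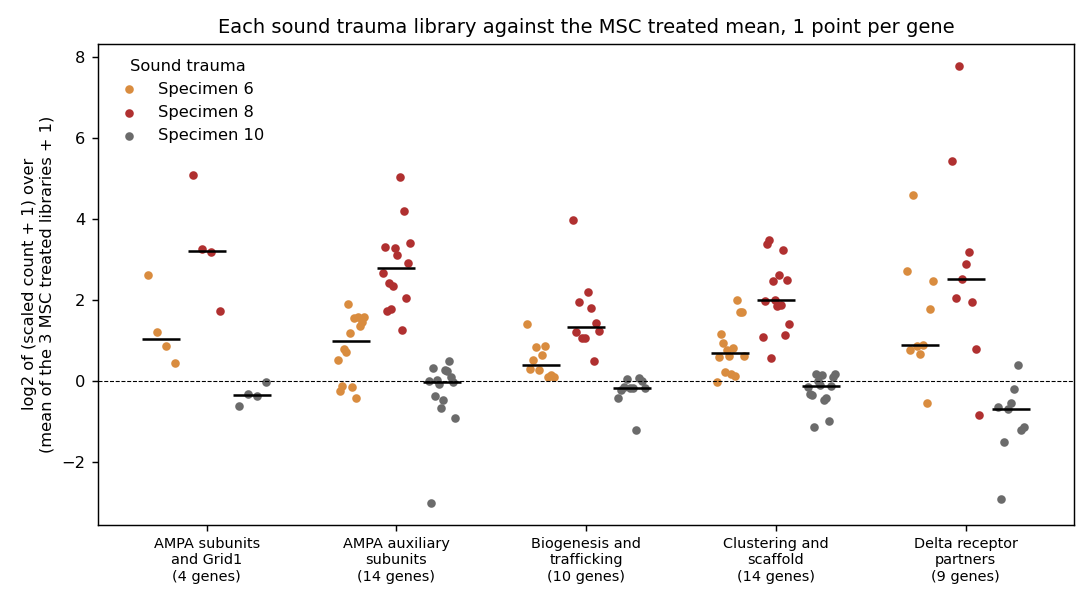
Each point is 1 gene, placed at the log2 ratio of (scaled count + 1) in a sound trauma library to (mean of the 3 MSC treated libraries + 1), with a bar at the median of each list. By median, specimen 8 lies highest and specimen 6 next in all 5 lists, and the medians of specimen 10 lie at or below 0.

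By family sum, the other ionotropic glutamate receptors had the same order among the sound trauma specimens, with 8 above 6 and 6 above 10, while the order over all 6 libraries differed. The NMDA subunit gene Grin2d was an exception, with 83.4 scaled counts in specimen 6 and 95.6 in specimen 10. The 6 named NMDA receptor subunits summed to 1649, 7467 and 529 scaled counts after sound trauma alone, against 546, 811 and 643 with MSC. The 3 named kainate receptor subunits summed to 739, 1697 and 477, against 464, 615 and 682 with MSC. For comparison the 3 AMPA genes summed to 978, 4893 and 263, against 225, 476 and 347 with MSC. These sums are not per length and compare libraries, not families.

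Markers could be named only where the study listed them as regulated on these samples, so their direction is not independent evidence. All named markers of brain cells stood in the down-regulated list. Summed markers of granule cells, astrocytes, oligodendrocytes, choroid plexus and forebrain neurons were highest in specimens 6 and 8, as the members were, with MSC treated specimen 18 close to specimen 6 for oligodendrocytes (8058 against 8932 scaled counts). Purkinje markers had another order. All 9 markers of cerebellar granule cells were named, and all 9 were highest in specimen 8 (28.2% of all genes tested were). Their summed level ran from 1644 to 21947 scaled counts in sound trauma and from 1527 to 2276 in MSC treated libraries. Of these 9, Cbln1 and Cbln3 also stand among the delta receptor partners above. Gabra6, a GABA receptor subunit nearly restricted to granule cells, was at 207, 1431 and 0.893 scaled counts after sound trauma alone, against 2.08, 6.13 and 3.88 with MSC. Specimens 6 and 8 were the only libraries with more than 6 reads of it. Zic2, of the same list, was at 970 scaled counts in specimen 6, below the 1097 of specimen 13 and the 1314 of specimen 18. The excess of specimen 8 over the MSC treated mean was 7.02 times that of specimen 6 for Gabra6, which was also the median of the 9 granule cell markers. Over that list this ratio ran from -8.36 for Zic2, whose excess in specimen 6 was negative, and 2.09 for Barhl1 to 26.7 for Fat2. The same ratio ran from -20.9 for Itpr1, again with a negative excess in specimen 6, to 63.4 for Slc1a6 among Purkinje markers (median 15.6), from 0.680 to 27.5 among astrocyte markers (median 1.51) and from 0.317 to 1.02 among choroid plexus markers (median 0.524). It ran from 1.64 to 7.86 among oligodendrocyte markers (median 2.12), and for the 2 forebrain markers it was 0.535 and 5.85 (median 3.19), beside 6.40 to 9.82 for the 4 members.

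Of 9 Purkinje cell markers 7 were named and 6 were highest in specimen 8 (28.2% of all genes tested). Among them was Car8, with 190.1, 2652 and 25.9 scaled counts in sound trauma and 28.2 to 36.4 in MSC treated libraries. The summed Purkinje level, 12189 to 31065 in sound trauma and 6082 to 22007 in MSC treated libraries, held Pvalb at 28381 in specimen 6, its highest library, and at 3038 in specimen 8, its lowest, where Itpr1, a calcium release channel, was the larger part at 9388. Astrocyte markers (5 of 6 named) summed to between 2882 and 13379 and to between 2100 and 4530.5, and oligodendrocyte markers (7 of 8) to between 3075 and 12209 and to between 2521 and 8058 scaled counts. Choroid plexus markers (4 of 5) summed to between 333 and 8082 and to between 275 and 375, and here specimen 6 was above specimen 8. Forebrain excitatory markers (2 of 6) summed to between 1295 and 5051 and to between 1143 and 1845. The 2 genes were Camk2a, also in the scaffold list, and Slc17a7, also in the spiral ganglion list, and the Purkinje marker Homer3 was in the scaffold list too. No named marker was at 0 in any library, and the part of these tissues in the receptor values was not tested.

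Among markers of cochlear cells, the summed spiral ganglion markers followed the order of libraries of the AMPA sums, and the other lists did not. The 3 named hair cell markers of 9, all in the up-regulated list, summed to 291, 272 and 674 scaled counts after sound trauma alone, against 488 to 637 with MSC, so specimens 6 and 8 were the lowest. Of 10 spiral ganglion markers 2 were named, and they summed to 1494, 3763 and 827 scaled counts after sound trauma alone, against 801, 1469 and 880 with MSC. Pou4f1, a transcription factor of sensory neurons, was at 102, 57.4 and 94.7 scaled counts after sound trauma alone, against 87.3, 121 and 197 with MSC, lowest in specimen 8, while Slc17a7, the vesicular glutamate transporter that granule cells also use, was highest there at 3706. The summed level of 5 of 8 markers of stria vascularis and acellular matrices was 3309, 3898 and 5131 in sound trauma and 3745 to 5490.5 in MSC treated libraries. That sum mixes genes of opposite direction. Kcnj10, in the down-regulated list, was highest in specimen 8, at 1633, 2090 and 929 scaled counts after sound trauma alone. Kcnq1, Kcne1, Otog and Otoa, in the up-regulated list, were each lowest in specimens 6 and 8, as the summed hair cell markers were. Sox10, the 1 named of 5 Schwann cell markers, ran from 600.4 to 838 in sound trauma and from 773 to 1010.1 with MSC.

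**Figure D5:**
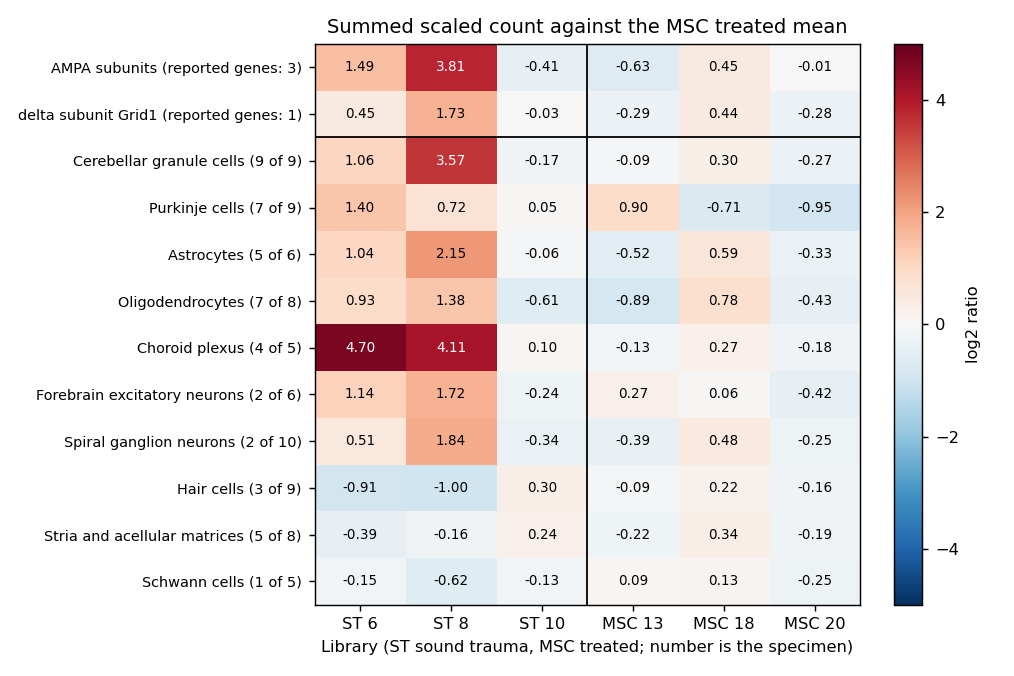
Colours and printed values give the log2 ratio of each list's summed scaled count in a library to the mean of the 3 MSC treated libraries, with the named and total numbers of markers in brackets. The AMPA (3.81) and Grid1 (1.73) rows reach their highest value in specimen 8. So do the granule cell (3.57), astrocyte (2.15), spiral ganglion (1.84), forebrain (1.72) and oligodendrocyte (1.38) rows. The Purkinje and choroid plexus rows are highest in specimen 6, and the hair cell row is lowest in specimens 6 and 8.

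Among 3527 other named genes, those with the profile most like each member were found by the distance between mean-centred log2 profiles over the 6 libraries. The nearest to Gria1 were Kcnd2, Kcnj9, Cbln1, Gad1 and Camkv, at distances of 0.49 to 0.96 with Pearson r of 0.983 to 0.996. Kcnd2 and Kcnj9 encode potassium channel subunits and Gad1 the enzyme that makes GABA. Among the 5 nearest to Gria2 were Cacna1a, Dlgap1, Gria4 and Fgf14, and among those nearest to Gria4 were Gria2, Cacna1a, Adgra1 and Calb1. Cacna1a encodes the P/Q-type calcium channel and Calb1 a calcium buffer. The nearest to Grid1 were Npas3, Nbea, Acsl6, B230217C12Rik and Xkr4. With 6 libraries, of which specimens 6 and 8 carry most of the spread, correlation was high for any gene that shared their order, and the values are a description.

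Between members, Gria2 and Gria4 lay closest, at a distance of 0.34, and all other pairs lay at 1.49 or more. Gria1 lay at 2.13 from Gria2 and 2.29 from Gria4, and farthest from Grid1, at 3.65.

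The 250 bases before the annotated starts of Gria2 and Gria4 are shown, from RefSeq on GRCm38.p6 and on the - strand (chr3:80802836-80803085 for Gria2 and chr9:4796235-4796484 for Gria4). These members moved together most closely, and no promoter of Gria1 or Grid1 was found in the promoter set used. Whether the less alike members hold the motif named below was therefore not checked. Capitals mark a match to the letters of the NRF1 motif, which are GCGC, any 2 bases and GCGC again.
Gria2: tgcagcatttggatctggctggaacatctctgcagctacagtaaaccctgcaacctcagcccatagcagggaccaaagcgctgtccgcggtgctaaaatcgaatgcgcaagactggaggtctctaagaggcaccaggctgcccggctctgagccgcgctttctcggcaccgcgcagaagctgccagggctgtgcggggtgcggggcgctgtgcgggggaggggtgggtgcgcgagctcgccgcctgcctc
Gria4: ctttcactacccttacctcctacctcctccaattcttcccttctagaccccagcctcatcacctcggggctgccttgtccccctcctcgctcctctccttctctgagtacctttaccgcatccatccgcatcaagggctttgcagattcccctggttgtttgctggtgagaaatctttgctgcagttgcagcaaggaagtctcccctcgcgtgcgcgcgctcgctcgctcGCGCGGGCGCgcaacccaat
The motif was searched on both strands of the window from 250 bases before to 50 after the start. Gria4 had its match 20 bases before the start and Gria2 had 1 match 5 bases after its start, outside the bases shown, and 6.23% of 32851 promoters held the motif. Each window also held 1 E-box (CANNTG), found in 72.3% of promoters, and neither held a TATA box (TATAAA, 13.6%), a GC box (GGGCGG, 35.7%) or a CRE (TGACGTCA, 1.79%). The Gria2 window had 26 CpG pairs and the Gria4 window 17, against a median of 7 over all promoters. A match is a description of letters and was not tested for binding.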

How the data were processed

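Left cochlear RNA came from 3 sound trauma and 3 MSC treated mice, as 6 libraries, and the groups were taken from the sample labels. The authors trimmed and aligned reads with the AIR package to the C57BL/6NJ genome. The counting tool and its use of strand are not given in the sources used here, so reads on overlapping or antisense genes cannot be told apart. The authors deposited a TMM-scaled signal per gene and library. Every value (100%, tolerance 1e-06) was a whole multiple of the library's smallest step, so that reads were recovered. The authors also deposited mean FPKM per group for listed genes, with their own FDR and log2 fold change from NOISeq, and these last columns were not used. Symbols came from these lists alone, which name 3716 genes. Some genes are not reported here.

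Of 25369 genes with a read, 15970 passed edgeR's filterByExpr. The main fit was limma-trend on log2(scaled count + 1), two-sided, with Benjamini-Hochberg adjustment over all genes. The fold changes are on that scale and understate those of low genes. A count test on those reads, edgeR's quasi-likelihood fit, was an alternative and called 0 genes. Fits were tested on simulated data. Shares have 95% Wilson intervals. Gene length was worked out from mean FPKM and reads, and agreed between groups within a relative difference of 7.5e-10. Coding lengths came from GENCODE M21 on GRCm38, in place of the RefSeq proteins first planned. Depth was 9170390 to 11030863 reads on genes.

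The members and gene lists were chosen with earlier results of these data known. Named genes were the members, the 5 nearest profiles of each, and from each pathway list the genes with the lowest and the highest fold change and the highest level. Others, such as Adarb1, Cbln2, C1ql1, C1ql2 and single markers, were named for their role or after their values were seen. Alternatives were other scalings, pseudocounts of 0.1 and 10, other filters, edgeR, DESeq2, limma-voom, a robust fit and each library left out. Models were fitted with DESeq2 1.42.0, edgeR 4.0.16 and limma 3.58.1 under R 4.3.3. Shares, intervals and profiles used scipy 1.17.1 and pandas 2.3.3 under Python 3.11.15.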

Additional observations from a re-analysis of the deposited data

How the results depend on the processing

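No paired analysis was possible because the specimen numbers are not shared between the groups. The count of genes called was 0 in all settings but one, the fit without sound trauma specimen 10, in which 1 gene was called, and that gene was no member, so the range with 1 library left out was 0 to 1. Of 144 values recomputed under alternatives, 135 stayed within the spread between replicates or within 1.5 times the reported count. That tolerance was wide. For Gria4 the spread was 1.33 on the log2 scale, so the move from -1.27 to -0.30 without specimen 8 counted as within it. Counts of 0 that stayed at 0 were included too, so the tally is not a measure of stability. Fold changes of the members stayed below 0 in each of the 11 other alternatives and with any 1 library left out, between -3.98 and -1.13 for Gria1, -2.27 and -0.49 for Gria2, -2.08 and -0.30 for Gria4 and -1.11 and -0.25 for Grid1. Without specimens 6 and 8 together, an alternative chosen after seeing the data, they were 0.48, 0.28, 0.33 and -0.013 in the same order of genes. The count models gave larger values, -3.79 in DESeq2 and -3.78 in edgeR for Gria1, since they compare group means of reads and specimen 8 weighs more there. Dividing by gene length in place of reads moved the mean MSC treated shares of AMPA reads to 22.8% for Gria1, 15.5% for Gria2 and 61.7% for Gria4, and the sound trauma share of Gria2 to 12.7%. Depth was lowest for Gria1 and Grid1, with 32 and 41 reads in specimen 13.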
